A study of Mus musculus with 8 samples.

Results

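The genes described here are 10 enzymes of the pentose phosphate pathway and of the polyol and xylulose routes, chosen by symbol from the 25700 genes of the deposited count tables: G6pdx, Pgd, Rpia, Tkt, Taldo1, Akr1b3, Sord, Khk, Dcxr and Xylb. Their levels were compared between brain endothelial cells of C57BL/6 pups with an endothelial deletion of GLUT1 (GLUT1EC-/-, here KO, n = 4 pups) and of wild-type pups (WT, n = 4 pups), all at postnatal day 6. Cells were sorted by FACS straight into lysis buffer, without culture, and their mRNA was sequenced. The promoter that drives the deletion is not given in the sources used here. The design compares the transcriptome with and without endothelial GLUT1, the carrier through which glucose crosses the blood-brain barrier. Dcxr was put among the members with its difference between the genotypes already known, so its values, intervals and calls in this contrast are a description, given with no p-value, and nothing is drawn from them.

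The pentose phosphate pathway branches from glycolysis at glucose 6-phosphate. Its oxidative branch reduces NADP+ to NADPH and yields ribulose 5-phosphate, and its reversible non-oxidative branch exchanges pentose phosphates with fructose 6-phosphate and glyceraldehyde 3-phosphate. The polyol route turns glucose into sorbitol and then fructose. In the glucuronate route L-xylulose is reduced to xylitol, and xylulose formed from xylitol by sorbitol dehydrogenase is phosphorylated to xylulose 5-phosphate, which joins the non-oxidative branch.

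The libraries held 20.9 to 40.8 M counts in KO and 25.9 to 114 M in WT, and 14154 genes passed the filter on low counts, all 10 members among them. KO pup 1 stood apart: 13624 genes were detected in it, in the remaining libraries 15756 to 17082, and across genes it correlated with them at 0.913 to 0.932, where each of them reached at least 0.974 with another. By the titles all 4 KO pups and WT pup 5 shared 1 cage and the other 3 WT pups came from another, while the names of the deposited files place WT pup 3 there in place of WT pup 5. Cage and genotype are therefore nearly confounded under either reading. Slc2a1, which encodes GLUT1, averaged 1507 ± 89.6 CPM (counts divided by the scaled library size in M) over the KO pups against 3044 ± 664 CPM over the WT pups (mean ± SD of 4), and these counts cover the whole gene, not the deleted stretch alone. Endothelial markers (7 genes) summed to 11817 to 13190 CPM in KO and 12361 to 13632 CPM in WT. In the tests described below, 3 of the 7 were above 0 on the fold change scale. EdgeR called 0 of them, with 1 at an unadjusted p under 0.05, and DESeq2 called 1 (11.1% and 2.64% over all genes).

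Of the 10 enzymes, Dcxr, the reductase of L-xylulose, was 3.20-fold higher in KO, and the other 9 lay between 0.87-fold and 1.25-fold of WT. Over all tested genes edgeR's quasi-likelihood test called 55 of 14154 genes (0.389%) at a Benjamini-Hochberg adjusted p under 0.05, 0.276% higher and 0.113% lower in KO, and 1 of the 10 members, Dcxr, was among those higher. Since that value helped choose the members, nothing is read from the count. None of the other 9 members was called (adjusted p 0.388 to 0.986), with 1 of them, Akr1b3, at an unadjusted p under 0.05, and neither DESeq2 nor limma-voom called any of the 9. Over all genes 11.1% had an unadjusted edgeR p under 0.05, and DESeq2 and limma-voom called 2.64% and 0.509%. The median log2 fold change of the 10 members was 0.072, and 0.062 without Dcxr, against 0.0017 over all tested genes. The ranges of KO and WT pups were separate for 1 member, Dcxr, while over all tested genes they were separate for 7.19% (3.77% with KO higher). In these bulk samples, fewer cells of a type and less RNA per cell cannot be told apart.

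**Figure D1:**
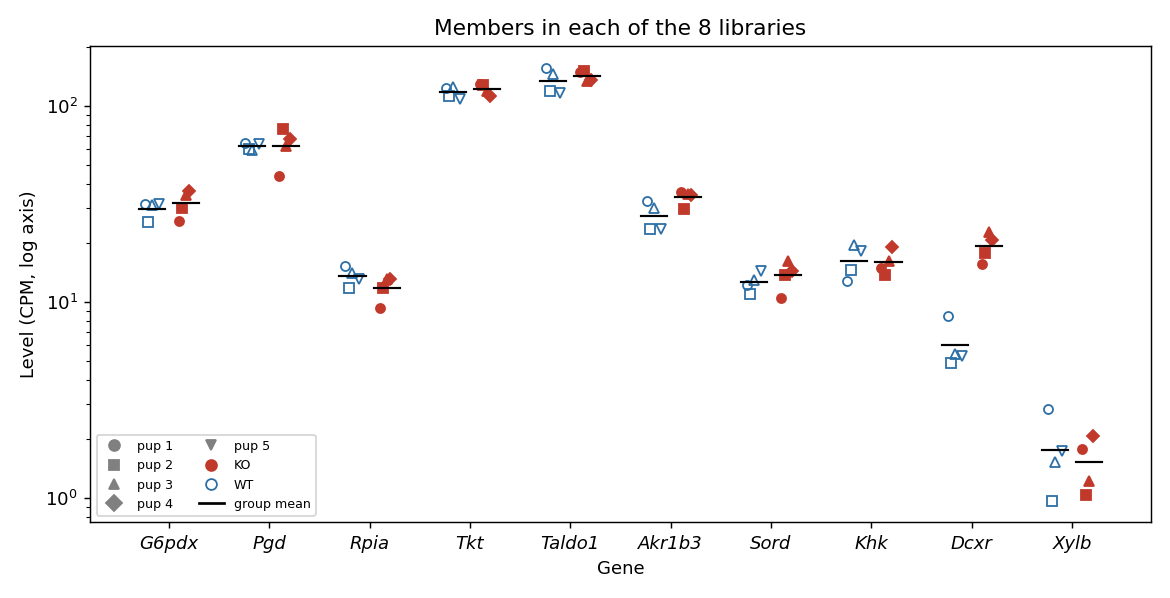
Level of each member in each library, in CPM on a log axis. Filled red symbols are KO pups, open blue symbols WT pups, the symbol shape gives the pup number and bars are group means. Dcxr is the 1 gene whose KO pups (15.7 to 22.7 CPM) all lie above its WT pups (4.90 to 8.47 CPM).

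The oxidative branch showed little difference. G6pdx encodes glucose-6-phosphate dehydrogenase, the rate-limiting enzyme at the entry of the pathway. It measured 25.9, 30.2, 34.98 and 36.9 CPM in KO pups 1 to 4 and 31.7, 31.5, 25.6 and 31.1 CPM in WT pups 5, 1, 2 and 3. KO pups 3 and 4 exceeded every WT pup, while KO pup 1 and WT pup 2 were low and nearly equal. The resulting log2 difference, 0.097, was smaller than its SE of 0.13 (95% interval -0.19 to 0.38, edgeR adjusted p 0.846). G6pdx (chromosome X, 74409483 to 74429194, minus strand) overlaps Ikbkg on the opposite strand, and the strand setting of the counting is not given.

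Pgd encodes 6-phosphogluconate dehydrogenase, which makes the second NADPH of the branch. Its level was 43.8, 76.1, 62.8 and 67.7 CPM in KO pups 1 to 4 and 63.7, 64.9, 60.4 and 59.6 CPM in WT pups 5, 1, 2 and 3. KO pup 1 lay below every other library and KO pup 2 above, while the WT pups lay close together. The coefficient of variation was accordingly 21.8% in KO and 4.11% in WT, and the means, 62.6 ± 13.7 and 62.2 ± 2.55 CPM, were nearly equal (log2 fold change 0.012, SE 0.14, edgeR adjusted p 0.986). The sign of so small a difference changed in 7 of 18 alternative settings.

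The non-oxidative branch held the most abundant members. Transketolase, encoded by Tkt, moves units of glycolaldehyde between sugar phosphates with thiamine diphosphate as cofactor. It measured 129, 128, 120 and 113 CPM in KO pups 1 to 4 and 108, 124, 113 and 125 CPM in WT pups 5, 1, 2 and 3, and the groups overlapped. The log2 difference, 0.062 (SE 0.078, 95% interval -0.11 to 0.23, edgeR adjusted p 0.834), had the smallest SE of the 10. Taldo1 encodes transaldolase, which moves a dihydroxyacetone unit. Its levels were 149, 151, 135 and 135 CPM in KO and 116, 157, 120 and 146 CPM in the same order of WT pups. WT pups 5 and 2 were low and WT pup 1 was the highest of all 8 libraries, so the spread lay mainly within WT (log2 fold change 0.082, SE 0.10, edgeR adjusted p 0.834).

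Rpia encodes ribose-5-phosphate isomerase, which converts ribulose 5-phosphate into the ribose 5-phosphate used for nucleotides. It measured 9.35, 11.7, 13.1 and 13.04 CPM in KO pups 1 to 4 and 13.1, 15.2, 11.8 and 14.1 CPM in WT pups 5, 1, 2 and 3. KO pup 1 was lowest and the remaining pups overlapped. The log2 fold change was -0.20 (SE 0.15, 95% interval -0.54 to 0.14, edgeR adjusted p 0.699).

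In the polyol route, Akr1b3 encodes aldose reductase, which reduces glucose to sorbitol with NADPH. Its levels were 36.5, 29.9, 35.6 and 35.3 CPM in KO pups 1 to 4 and 23.6, 32.8, 23.4 and 30.1 CPM in WT pups 5, 1, 2 and 3. KO pups 1, 3 and 4 exceeded every WT pup, while KO pup 2 lay below WT pups 1 and 3. The log2 difference was 0.32 (SE 0.13) and its 95% interval ran from 0.03 to 0.61. By edgeR its unadjusted p was 0.0325 and its p adjusted over all tested genes 0.388. It was between 0.19 and 0.54 in 18 alternative settings and was called in none of them. Sord encodes sorbitol dehydrogenase, which oxidises sorbitol to fructose and xylitol to D-xylulose. It measured 10.5, 13.8, 16.1 and 14.4 CPM in KO and 14.5, 12.2, 10.995 and 12.9 CPM in WT in the same order, with KO pup 1 lowest and KO pup 3 highest of all (log2 fold change 0.12, SE 0.16, edgeR adjusted p 0.851). Khk encodes ketohexokinase, which phosphorylates fructose. It ranged from 13.8 to 19.03 CPM in KO and from 12.8 to 19.5 CPM in WT, and the log2 difference was -0.017 (SE 0.17; 95% interval -0.38 to 0.35, edgeR adjusted p 0.984).

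The members at the xylulose steps were Dcxr and Xylb. Dcxr (ENSMUSG00000039450, GRCm38 chromosome 11, 120725399 to 120727281, minus strand) encodes dicarbonyl and L-xylulose reductase, a short-chain dehydrogenase that reduces L-xylulose and reactive dicarbonyls with NADPH. It measured 15.7, 17.8, 22.7 and 20.8 CPM in KO pups 1 to 4, from 327, 430, 556 and 872 counts. In WT pups 5, 1, 2 and 3 it measured 5.32, 8.47, 4.90 and 5.45 CPM, from 135, 355, 546 and 201 counts. WT pup 1 was the highest WT pup and the lowest KO pup still stood above it. Means over the 4 pups were 19.3 ± 3.12 CPM for KO against 6.03 ± 1.64 CPM for WT (± SD). On the log2 scale KO exceeded WT by 1.68, with an SE of 0.20 and an interval (95%) from 1.23 to 2.13. The log2 fold change was 1.58 to 1.89 when each library was left out in turn. Within the cage that the KO pups shared with WT pup 5 by title this log2 value was 1.86, and with a cage term 1.86 by the titles and 1.82 by the file names. Dcxr was not among the genes called in these 3 fits, in which the genotype difference rests on 1 WT pup.

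Xylb encodes xylulokinase, which turns D-xylulose into xylulose 5-phosphate. It was the least abundant member, at 25 to 119 counts per library, and measured 1.77, 1.04, 1.23 and 2.08 CPM in KO pups 1 to 4 and 1.73, 2.84, 0.97 and 1.52 CPM in WT pups 5, 1, 2 and 3. The groups overlapped throughout. At this depth the interval was wide (log2 fold change -0.20, SE 0.47, 95% interval -1.23 to 0.83, edgeR adjusted p 0.929), and neither a rise nor a fall can be read from it.

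**Figure D2:**
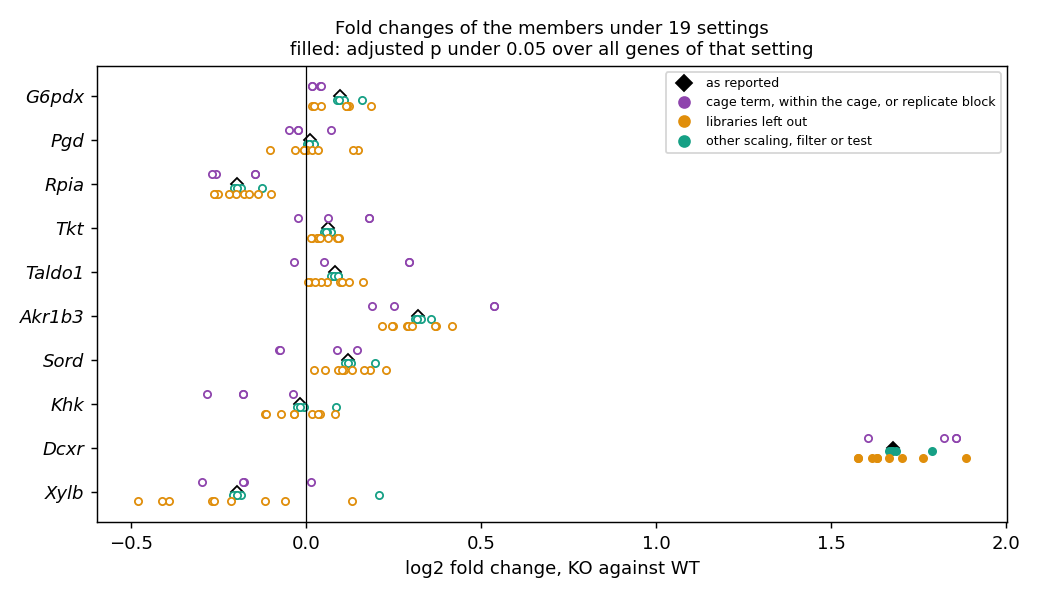
Log2 fold change of each member (x axis) as reported (black) and in 18 alternative settings, coloured by kind, with filled symbols where the adjusted p was under 0.05. Dcxr lies between 1.58 and 1.89 in all settings and is unfilled with a cage term, within the cage and with a replicate block; no other member is filled in any setting.

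Because Dcxr lies beside Cbr2, a related carbonyl reductase gene on the same strand, the sequences of both were compared. The annotated genes are 2207 bases apart, and their coding sequences, 732 bases each, were identical at 506 positions (69.1%). The longest identical run was 16 bases, and no stretch of 100 bases, the read length given in the labels, was identical. The merged exons span 1144 bases for Dcxr and 1327 for Cbr2, and their parts outside the coding sequences were not compared. How reads of the pair were assigned was not tested. The 100-base stretches most alike, coding bases 226 to 325 of each in GENCODE M21, are shown with the 18 differing bases in capitals.
Dcxr: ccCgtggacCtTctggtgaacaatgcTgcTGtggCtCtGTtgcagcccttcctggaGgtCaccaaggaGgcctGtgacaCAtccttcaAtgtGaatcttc
Cbr2: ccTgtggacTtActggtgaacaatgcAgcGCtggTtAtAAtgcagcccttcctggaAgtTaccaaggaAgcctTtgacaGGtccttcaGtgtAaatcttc
Cbr2 averaged 44.4 ± 13.7 CPM over the KO pups and 35.4 ± 9.87 CPM over the WT pups (log2 fold change 0.33, SE 0.24, edgeR adjusted p 0.676), with overlapping groups. Of 15 other genes of the tables within 100 kb of Dcxr, 13 were tested. A gene was taken as within it where any of its body lay there, which holds for Ccdc57 although its start site is farther off. None of the 13 was called by edgeR, DESeq2 or limma-voom, none had an unadjusted edgeR p under 0.05, and their log2 fold changes ran from -0.17 to 0.80. G6pdx has a closer copy, the autosomal gene G6pd2, which is identical to it at 94.8% of aligned coding bases and shares 6 stretches of 100 bases with it. G6pd2 had 0 counts in every library, which allows up to 3 counts or 0.0269 to 0.144 CPM.

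**Figure D3:**
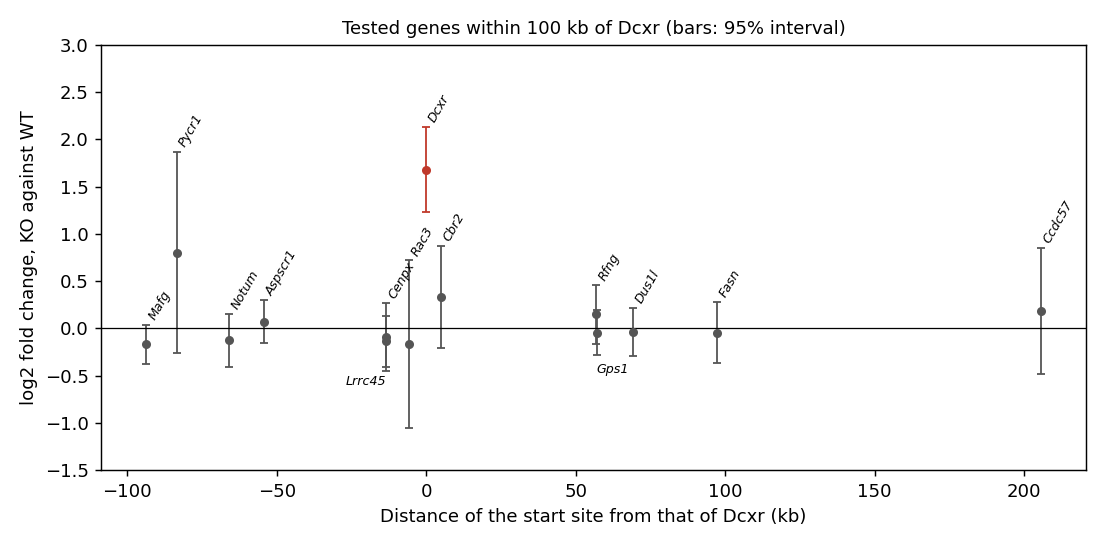
Log2 fold change (y axis, bars are 95% intervals) of the tested genes whose body lies within 100 kb of Dcxr, against the distance of their start site from that of Dcxr. Dcxr stands at 1.68 and the 13 others between -0.17 and 0.80; Pycr1, at 0.80, averaged 1.40 CPM in WT.

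The windows of 250 bases upstream of the RefSeq start sites (GRCm38.p6) were also read for 8 of the 10 members, Akr1b3 and Xylb having no entry. The windows of Dcxr, the member that differed, and of Taldo1, the most abundant one, are shown on the gene's strand with CCAAT boxes (CCAAT, either strand) and GC boxes (GGGCGG, either strand) in capitals. They lie at chr11:120727285-120727534 (minus strand) and chr7:141391910-141392159 (plus strand).
Dcxr: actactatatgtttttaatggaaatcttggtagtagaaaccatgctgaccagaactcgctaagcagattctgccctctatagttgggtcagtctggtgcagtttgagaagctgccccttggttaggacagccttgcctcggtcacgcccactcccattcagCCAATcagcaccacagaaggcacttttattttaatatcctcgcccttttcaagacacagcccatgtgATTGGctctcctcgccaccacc
Taldo1: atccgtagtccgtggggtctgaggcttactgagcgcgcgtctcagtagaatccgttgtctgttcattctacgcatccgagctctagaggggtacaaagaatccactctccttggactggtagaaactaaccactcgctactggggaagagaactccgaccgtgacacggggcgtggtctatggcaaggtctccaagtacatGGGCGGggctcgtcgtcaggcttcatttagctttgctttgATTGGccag
The window of Dcxr was 48.8% G and C and held CCAAT boxes but no GC box. The other 7 members with a window each had a GC box in at least 1 of their windows, a motif found in 32.7% of all 32851 windows, and CCAAT was found in 33.8% of all windows. The antioxidant response element (TGACNNNGC, either strand, 10.2% of all windows) was matched for G6pdx, as was the decamer of the p53 site (7.13% of all windows), and the E-box CACGTG (6.02%) for Khk. These matches describe letters in the windows only.

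Levels were compared between genes as CPM per kilobase of merged exons. In WT, Taldo1 was highest at 62.1 ± 9.15 CPM per kilobase, followed by Tkt at 15.95 ± 1.13, without overlap between them. G6pdx (9.73 ± 0.958), Pgd (9.64 ± 0.396) and Khk (9.04 ± 1.74) came next and overlapped their neighbours in this order. Sord (5.37 ± 0.615) and Dcxr (5.27 ± 1.43) overlapped each other, as did Akr1b3 (3.28 ± 0.56) and Rpia (2.53 ± 0.271), and Xylb was lowest at 0.43 ± 0.191 CPM per kilobase. In KO, Dcxr reached 16.8 ± 2.73 CPM per kilobase, beside Tkt at 16.7 ± 1.03, and so moved from place 7 of the order to place 2. The merged exons of Akr1b3 span 8384 bases and its longest protein-coding transcript 1387 bases. Per kilobase of the longest protein-coding transcript, Akr1b3 stood at place 4 in WT rather than 8, and Dcxr at place 8 in WT and 5 in KO.

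**Figure D4:**
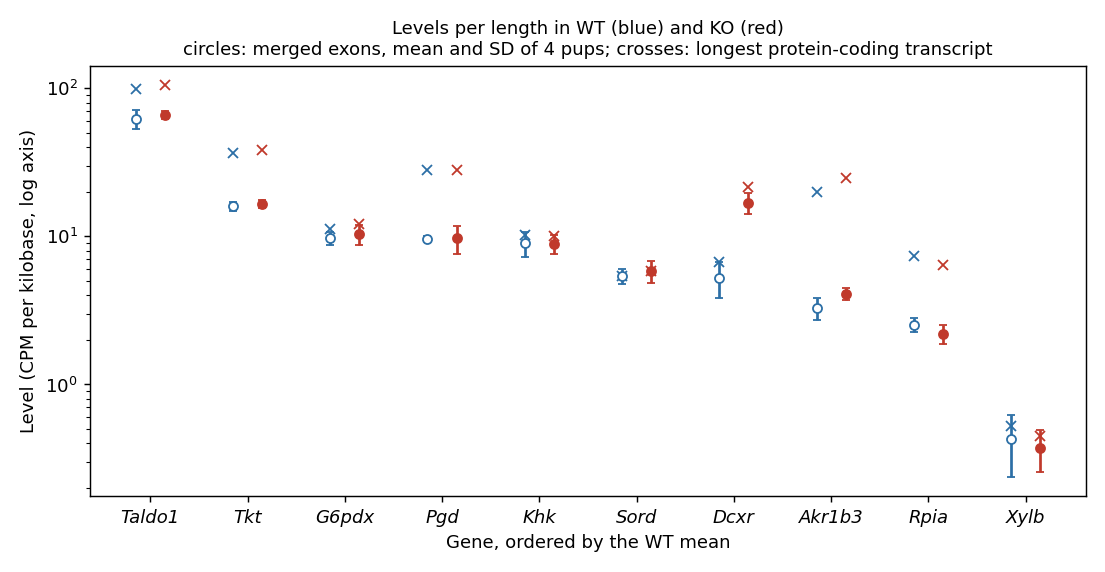
Levels of the members in CPM per kilobase on a log axis, ordered by the WT mean. Circles with bars are mean and SD of 4 pups over merged exons (blue WT, red KO) and crosses are means over the longest protein-coding transcript; Dcxr goes from 5.27 in WT to 16.8 in KO, and Akr1b3 depends most on the length used.

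The genes whose log2 CPM over the 8 libraries followed Dcxr most closely, out of tested genes whose mean log2 CPM was 3 or more, were Nsdhl, Dglucy, Slc2a9, Nhlrc3 and Ccng1 (Pearson's r 0.978, 0.973, 0.964, 0.958 and 0.957). For all 5 the KO range lay above the WT range, so this likeness includes the genotype difference. Over all tested genes 3.77% had such ranges and 0.276% were called higher in KO. Picking genes by likeness to Dcxr favours genes that differ between the genotypes, so their ranges and calls are a description only. Dglucy (D-glutamate cyclase), Slc2a9 (a urate transporter) and Ccng1 (cyclin G1) had log2 fold changes of 1.65, 1.34 and 1.53 and were called over all genes (edgeR adjusted p 5.16e-05, 0.000753 and 9.94e-06). The call of Slc2a9 was lost with the cage term from the file names and within the cage (adjusted p 0.186 and 0.0897). Nsdhl, an enzyme of cholesterol synthesis, and Nhlrc3 differed less, with log2 fold changes of 0.30 and 0.37, and were not called by edgeR (adjusted p 0.36 and 0.0997), while DESeq2 called Nhlrc3 (adjusted p 0.0103).

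The pathway around the members was read through 10 lists that held 53 further genes, of which 46 were tested. By edgeR 1 of the 46, Slc19a2, was called (0.389% over all tested genes), and their median log2 fold change was 0.062. The lists were chosen with earlier results of these data known, so this count and the calls within the lists are a description only. In the oxidative branch 0 of 4 tested genes were called, with none at an unadjusted edgeR p under 0.05 and none called by DESeq2. H6pd, the form of the first enzyme in the endoplasmic reticulum, averaged 31.5 ± 3.65 CPM over KO pups and 39.1 ± 10.02 CPM over WT pups (log2 fold change -0.31), and Pgls, the lactonase, 55.4 ± 4.76 and 52.0 ± 6.03 CPM. In the non-oxidative branch 0 of 5 tested genes were called, likewise with none at an unadjusted edgeR p under 0.05 and none by DESeq2. Shpk, which phosphorylates sedoheptulose, measured 7.69 ± 1.23 and 6.47 ± 0.328 CPM, and Tktl1 and Tktl2, the relatives of transketolase, had 0 counts. Ribose use and supply gave 0 of 7, with none at an unadjusted edgeR p under 0.05 and none by DESeq2, and Prps2 and Dera at log2 fold changes of 0.32 and 0.096.

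**Figure D5:**
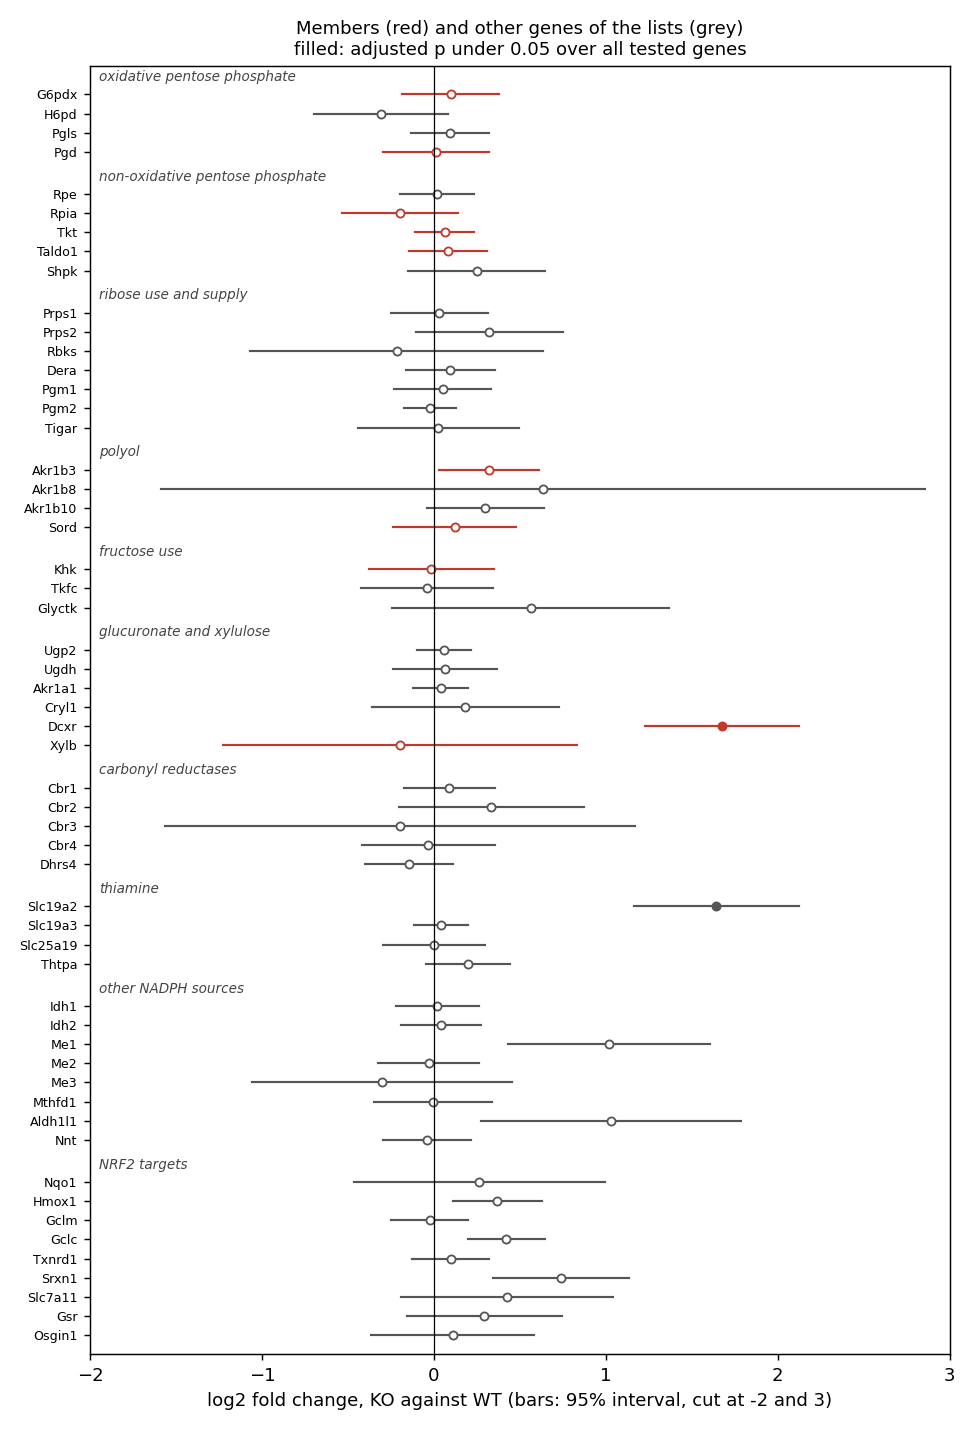
Log2 fold change with 95% interval for the members (red) and the other tested genes of the lists that are reported here (grey), grouped by list; genes of several lists appear once. Filled symbols, Dcxr at 1.68 and Slc19a2 at 1.64, mark an adjusted p under 0.05 over all tested genes.

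In the polyol list 0 of 4 tested genes were called by edgeR or DESeq2, with 1 (Akr1b3) at an unadjusted edgeR p under 0.05. Akr1b10, a relative of aldose reductase, ranged from 8.67 to 11.6 CPM in KO and from 7.49 to 8.46 CPM in WT (log2 fold change 0.30, edgeR adjusted p 0.527). In the fructose list 0 of 3 were called, none had an unadjusted edgeR p under 0.05 and none was called by DESeq2. Its genes Glyctk and Tkfc had log2 fold changes of 0.56 and -0.041, while the fructose transporter gene Slc2a5 had at most 3 counts in a library. In the glucuronate route above L-xylulose, log2 fold changes were 0.059 for Ugp2, 0.065 for Ugdh, 0.039 for Akr1a1 and 0.18 for Cryl1, and Miox, which opens the inositol entry to this route, had 1 count in all.

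Of 5 genes that supply the cofactor of transketolase, Slc19a2, which encodes a thiamine transporter, rose from 4.34 ± 1.24 to 13.7 ± 0.866 CPM (log2 fold change 1.64, SE 0.22, edgeR adjusted p 0.00592). Its KO pups (12.7 to 14.8 CPM) lay above its WT pups (2.68 to 5.64 CPM), and the call was lost with the cage term from the file names (1.66, adjusted p 0.368). The other carrier, Slc19a3, was at 86.3 ± 2.24 and 83.8 ± 4.72 CPM. Among 8 other sources of NADPH edgeR called 0, with 2 at an unadjusted p under 0.05 (Me1 and Aldh1l1), while DESeq2 called 1, Me1 (11.1% and 2.64% over all genes). Aldh1l1 is also known as a marker of astrocytes. Me1, cytosolic malic enzyme, measured 13.1, 7.501, 7.03 and 6.76 CPM in KO pups 1 to 4 and 3.27 to 5.16 CPM in WT (log2 fold change 1.02, edgeR adjusted p 0.168), and the log2 fold change was 0.74 without KO pup 1. Of 9 targets of the oxidant-responsive factor NRF2 edgeR called 0, with 3 (Gclc, Srxn1 and Hmox1) at an unadjusted p under 0.05 (11.1% over all genes). DESeq2 called 2, Gclc and Srxn1 (2.64% over all genes). The log2 fold changes of Gclc and Srxn1 were 0.42 and 0.74 (edgeR adjusted p 0.134 for each), and that of Hmox1 was 0.37 (edgeR adjusted p 0.247). Of the 9 targets, 8 were above 0 on the fold change scale and 1 below, where 7125 of all 14154 tested genes were above 0. The log2 fold changes of the 9 ran from -0.025 to 0.74 with a median of 0.29, and 3 had separate ranges (7.19% over all tested genes).

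Markers of other cells were read beside Dcxr. Over all genes edgeR called 0.389%, 11.1% had an unadjusted edgeR p under 0.05 and DESeq2 called 2.64%. Of the 14154 tested genes, 7125 were above 0 on the fold change scale. Microglial markers (7 genes, all above 0 on the fold change scale, 0 called by edgeR with 1 at an unadjusted p under 0.05, and 0 by DESeq2) summed to 608, 912, 1642 and 1230 CPM in KO pups 1 to 4 and to 1083, 844, 618 and 953 CPM in WT pups 5, 1, 2 and 3. Among the KO pups this order is the order of Dcxr, but among the WT pups it is not. WT pup 5 had the highest sum of the WT pups, while its Dcxr, 5.32 CPM, was below WT pups 1 and 3 (8.47 and 5.45 CPM). The ranges of the sums overlapped between the groups. Markers of choroid plexus (Ttr and Folr1) summed to 10.6 to 278 CPM in KO and 354 to 1833 CPM in WT (0 of 2 called by edgeR, both at an unadjusted p under 0.05, and 1 by DESeq2), and transcripts of mitochondrial DNA took 2.04 to 2.48% of counts in KO and 1.66 to 1.89% in WT. Of 5 astrocyte markers edgeR and DESeq2 called 0, and 4 had an unadjusted edgeR p under 0.05 (11.1% over all genes). These were Gfap, Aqp4 and Slc1a2, with log2 fold changes of 1.43, 1.13 and 1.08, and Gja1, with -0.23. Slc1a3 had a log2 fold change of 0.31. The sums of the 5 markers were 299 to 395 CPM in KO and 309 to 365 CPM in WT. These sums mostly follow Gja1, whose mean log2 CPM was 8.10 against 2.83 to 4.41 for the other markers. They therefore do not show the differences of the less abundant markers. The part of microglial, choroid plexus, astrocyte or mitochondrial transcripts in the difference of Dcxr, or in those of Me1 and Aldh1l1, was not tested. Sums for mural, neuronal, oligodendrocyte, fibroblast and red blood cell markers overlapped between the groups, and no marker of these lists had 0 counts in all libraries. These sums, too, need not show differences of single genes. The mural, oligodendrocyte and red blood cell lists each had 1 gene at an unadjusted edgeR p under 0.05, and the neuronal and fibroblast lists 0 (11.1% over all tested genes). With genotype as the only term, edgeR, DESeq2 and limma-voom called 0 of these markers.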

How the data were processed

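For each of the 8 libraries the authors deposited raw counts by Ensembl gene, 1 table a library. Per the labels' protocols these were stranded mRNA libraries read single-end. The build GRCm38 and the tools STAR and featureCounts are named, without versions, per the submitters' processing notes. The annotation release and the strand setting were not given in the sources used. Groups came from the sample titles. Symbols and positions came from GENCODE M21 (25664 of 25700 identifiers named).

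The fit over all genes used edgeR 4.0.16 (R 4.3.3) with filterByExpr by genotype (minimum count 10, minimum total 15), TMM scaling (factors 0.978 to 1.03) and genotype as the only term. A quasi-likelihood F test was adjusted over all 14154 tested genes by Benjamini-Hochberg, with a threshold of 0.05. CPM uses TMM-scaled library sizes, SE is the log2 fold change over the root of F, and log2 CPM has a prior count of 2. Floors of 3 counts cover counting error only. On simulated counts of 13896 genes (changed genes drawn from those with a mean log2 CPM above 3), the fit called 87% of 100 genes changed 2-fold, 53% of 100 changed 1.5-fold and 4 of 13696 unchanged. Alternatives used DESeq2 1.42.0, limma 3.58.1, other scalings and filters, cage terms, a replicate block and left-out libraries. Coding sequences were aligned with Biopython 1.88.

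The members, lists and naming rule were chosen with earlier results of these data known. Named were the members, called genes of each list or otherwise the 2 of smallest p, the 5 genes most like Dcxr, Slc2a1, and genes near Dcxr that were called or related to it. Outside this rule, and with their values in view, these were added: Slc19a3, Ugp2, Ugdh, Akr1a1, Cryl1, Pycr1, Hmox1, the astrocyte markers, and the genes with few or no counts. DESeq2 gave no adjusted p for some genes, which are left out of its share. Some genes of the lists are not reported here.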

Additional observations from a re-analysis of the deposited data

Results flagged for a closer look

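In 60 checks of 4 pups each (30 named genes in 2 groups), 5 showed a pup whose gap to the nearest other, as a share of the group's range, was above Dixon's 95% critical value, where chance flags about 1 in 20. Dcxr was 8.47 CPM in WT pup 1, against 4.90 to 5.45 CPM in the other WT pups, and the log2 fold change without that pup was 1.89. G6pdx was 25.6 CPM in WT pup 2, against 31.1 to 31.7 CPM in the other WT pups. Me1 was 13.1 CPM in KO pup 1, against 6.76 to 7.501 CPM in the other KO pups. Prps2 was 24.5 CPM in WT pup 5, against 13.2 to 15.02 CPM in the other WT pups. Shpk was 5.99 CPM in WT pup 1, against 6.59 to 6.70 CPM in the other WT pups.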

How the results depend on the processing

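Dcxr kept its sign in all 18 alternatives (1.58 to 1.89) and was the 1 member called in 14 of them. The members called fell to 0 with cage from the titles (2 at an unadjusted edgeR p under 0.05), cage from the file names (1), within the KO pups' own cage as titled (3) and with a replicate block (1, log2 fold change of Dcxr 1.61). The pup numbers shared by KO and WT come from different cages by title and did not pair the samples (correlations of same-numbered pups -0.03, 0.03 and -0.07), so the block is given only here. The block also ended the calls of Slc19a2 (1.49) and Slc2a9 (1.24). Slc2a1 was called as reported (log2 fold change -1.01), but not with the block or with cage from the file names. Its log2 fold change stayed between -1.31 and -0.89 in the 18 alternatives.

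Over all genes, 39 were called higher and 16 lower. The counts were 158 and 193 by DESeq2, 10 and 6 with cage from the titles, and 10 and 0 with cage from the file names (314 lower at an unadjusted p under 0.05). They were 11 and 0 with the replicate block (524 lower at an unadjusted p under 0.05) and 10 higher within the cage. With no filter 38 were lower, and 26 when KO pup 1 and WT pup 2 were both left out. Leaving out 1 library gave 25 to 60 higher, the extremes being without KO pup 2 and without KO pup 1, and 6 to 27 lower, without KO pup 3 and without WT pup 3; without KO pup 1, 25 were lower.

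Some uncalled log2 fold changes changed sign, that of Prps2 from 0.32. With limma-voom Xylb was 0.21, Khk 0.084 and Tkfc 0.059. With cage from the titles Sord was -0.077, Pgd -0.024 and Prps2 -0.22, and within the cage -0.076, -0.023 and -0.22. With cage from the file names Xylb was 0.013, Tkt -0.025, Taldo1 -0.034 and Pgls -0.061. With the replicate block Pgd was -0.049, and with both KO pup 1 and WT pup 2 left out Pgls was -0.024. Leaving out 1 library gave -0.41 to 0.13 for Xylb, -0.12 to 0.084 for Khk, -0.10 to 0.15 for Pgd and -0.12 to 0.013 for Tkfc. The cause was not tested.

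Levels in WT per kilobase of the longest annotated transcript were 5.47 for Akr1b3, 11.3 for G6pdx, 17.1 for Pgd, 3.72 for Rpia, 36.4 for Tkt and 99.0 for Taldo1. Over the longest protein-coding transcript, a length chosen after seeing the data, they were 6.76 for Dcxr, 19.8 for Akr1b3, 11.3 for G6pdx, 28.0 for Pgd, 7.41 for Rpia, 36.4 for Tkt and 99.0 for Taldo1. The depth limits Xylb most.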
